A study of Mus musculus with 2 samples.

Results

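Type I interferon response genes were followed in microglia sorted from mouse brain. The list held 33 genes fixed by symbol, and all 33 were found among the 32285 genes of the count matrix. They were picked by name and not by a limit on their levels. Earlier results of these data were known when the list was made.

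Type I interferons are secreted proteins that bind a receptor made of Ifnar1 and Ifnar2. The receptor-bound kinases Tyk2 and Jak1 then activate the factor ISGF3, which contains Stat2 and Irf9, and ISGF3 binds the interferon-stimulated response element, a pair of GAAA repeats, in the promoters of antiviral genes. Microglia, the resident macrophages of the brain, carry this receptor, and a small interferon-responsive state of microglia is known from single-cell studies.

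All mice were heterozygous for Cx3cr1CreERT2(Litt), a tamoxifen-inducible Cre expressed from the Cx3cr1 locus, and were given as 12 weeks old. They received oil or tamoxifen (TAM), with a treatment of 4 weeks stated for TAM. Brains were perfused, and CD11b+ CD45+ Ly6G- CD206- cells were sorted, a gate meant to leave out neutrophils and CD206-positive macrophages. Cells carried 1 of 10 hashtag antibodies, of which 5 were named for oil (Oil1 to Oil5) and 5 for tamoxifen (TAM1 to TAM5), and were pooled in 1 droplet library with 1 matching hashtag library. Whether every hashtag stands for its own mouse is not stated, so the p-values measure the spread between hashtags. There was no group without Cre, so the effect of tamoxifen itself and of Cre activation cannot be told apart.

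The matrix held 9975 barcodes and 51821041 unique molecular identifiers (UMIs, each standing for 1 captured transcript end). Hashtag counts gave 8055 single-hashtag cells, 1737 multiplets and 183 negatives, and 7545 cells in 7 clusters were microglia-like by their markers, with 587 to 903 cells and 2959521 to 4795880 UMIs per hashtag. About 196 doublets within 1 hashtag were expected to remain. Transcripts of the Y chromosome and Xist placed Oil1, Oil2, TAM1 and TAM2 as male and the other 6 hashtags as female. The 14 listed microglia markers were all detected in these cells. Of the markers of other cells, 4 of 6 for T and NK cells (Cd3e among them), 3 of 6 for neutrophils (S100a8, S100a9 and Retnlg), 2 of 7 for monocytes (Ly6c2 and Chil3), 2 of 6 for vascular cells (Cldn5 and Rgs5) and 1 of 8 for dendritic cells (Cd209a) had 0 UMIs, as did the B cell marker Cd79a. Summed over all genes of a list, in CPM (counts per 1000000 UMIs), monocyte markers ran from 4.82 to 12.1 in the oil hashtags and from 4.95 to 15.6 in the TAM hashtags. The neutrophil list gave 362 to 439 CPM in oil and 364 to 438 in TAM, the B cell list 171 to 205 and 179 to 205, the vascular list 33.6 to 40.6 and 32.8 to 41.4, and the dendritic list 1634 to 1920 and 1616 to 1861. Each of these 5 lists overlapped between treatments, while the microglia list did not, at 40797 to 43709 CPM in oil and 39632 to 40648 in TAM. A cluster led by Fos, Fosb and Egr1, immediate early genes that respond within a short time to many stimuli, held 976 oil cells and 45 TAM cells. It took 47.7% of the cells of Oil1, 40.9% of Oil2, 28.4% of Oil3, 14.2% of Oil4 and 4.86% of Oil5, against 0.265% to 3.50% of the TAM hashtags.

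The response element could be read in the promoters of some of the listed genes. RefSeq windows on build GRCm38.p6, from 250 bases before to 50 bases after the transcript start, were matched by symbol for 27 of the 33 genes. The core of the element, GAAA followed by any 2 bases and GAAA again, was searched on both strands and was present in 14 of these 27 genes (51.9%) and in 3.99% of the 27025 genes with a window. Below, stretches upstream of the start are given 5′ to 3′ on the strand of the gene, with each match in capitals and overlapping matches run together. Isg15, Ifit1, Ifit3b and Ifi207 are shown because their RNA proved to be concentrated in a few cells, and Bst2 and Trim30a because theirs was spread over many.
Isg15: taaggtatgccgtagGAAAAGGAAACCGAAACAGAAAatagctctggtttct
Ifit1: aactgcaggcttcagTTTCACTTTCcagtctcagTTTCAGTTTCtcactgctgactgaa
Ifit3b: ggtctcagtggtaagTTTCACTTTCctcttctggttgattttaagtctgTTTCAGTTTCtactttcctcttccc
Ifi207: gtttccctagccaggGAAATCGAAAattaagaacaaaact
Bst2: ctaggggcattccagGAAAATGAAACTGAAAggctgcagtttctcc
Trim30a: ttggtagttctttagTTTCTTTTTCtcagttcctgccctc

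These stretches lie at chr4:156200860-156200911 (minus strand) for Isg15, chr19:34640770-34640828 (plus) for Ifit1, chr19:34607754-34607827 (plus) for Ifit3b, chr1:173741826-173741865 (minus) for Ifi207, chr8:71537572-71537617 (minus) for Bst2 and chr7:104465205-104465244 (minus) for Trim30a. None overlapped an annotated GENCODE exon. Isg15 carried 3 overlapping matches, and Ifit1 and Ifit3b carried 2 separate ones, which stand on the opposite strand and read as a pair of TTTC repeats. The 74 bases printed for Ifit3b also stood letter for letter in the window of Ifit3, its neighbour on chromosome 19. A match describes letters in a window and shows no binding.

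The 33 genes separated by how their UMIs were spread over cells. A cell was called interferon-high when at least 3 of 10 sentinel genes (Ifit1, Ifit2, Ifit3, Ifit3b, Isg15, Irf7, Oasl1, Rsad2, Usp18 and Ifi44) had a UMI, and a sentinel was left out of the rule when its own spread was measured. A gene was called restricted when at least 25% of its UMIs lay in interferon-high cells, widespread when at least 25% of the other cells had a UMI, and sparse otherwise. These values set the classes and are given as a description. By this rule 16 genes were restricted, 5 widespread and 12 sparse. Of the genes with a promoter window, the response element core stood in 7 of 13 restricted, 2 of 3 widespread and 5 of 11 sparse genes.

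**Figure D1:**
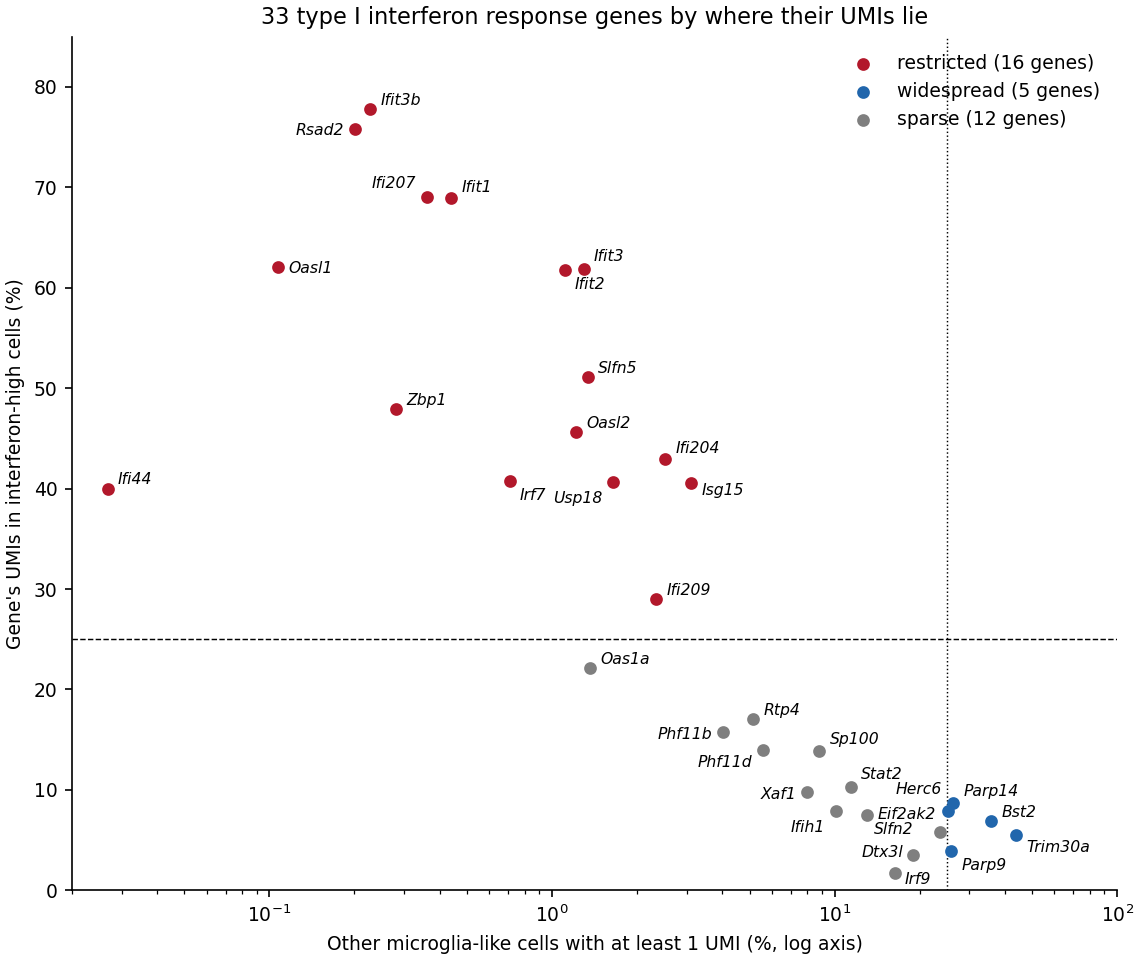
Each point is 1 of the 33 genes, placed by the percentage of other microglia-like cells with at least 1 UMI (horizontal, log axis) and the percentage of the gene's UMIs found in interferon-high cells (vertical), with the 25% limits as dashed and dotted lines. Restricted genes (red) lie from Ifi209 at 29.0% to Ifit3b at 77.8% of UMIs, and the widespread genes (blue) reach 44.0% of other cells at Trim30a.

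Among the restricted genes were the Ifit genes, whose products bind foreign RNA. Ifit3 had 341 UMIs, of which 61.9% lay in 48 interferon-high cells. It was detected in 77.1% of those cells and in 1.29% of the others, a ratio of summed levels of 242. Ifit3b gave 77.8% of 90 UMIs, Ifit1 68.9% of 119 and Ifit2 61.8% of 259. These genes lie close together on chromosome 19 (GENCODE M21, GRCm38: Ifit2 from 34550694, Ifit3 from 34583531, Ifit3b from 34607970 and Ifit1 from 34640871, all on the plus strand). Ifit3 and Ifit3b are near-identical copies, so the division of reads between them is uncertain.

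Isg15, a ubiquitin-like protein that is attached to other proteins during the response, was less concentrated. Of its 451 UMIs, 40.6% lay in interferon-high cells, and 75.5% of those cells and 3.11% of the others had a UMI. Usp18, which removes Isg15 and restrains the receptor, gave 40.7% of 231 UMIs, and Irf7, the factor that amplifies interferon transcription, gave 40.8% of 103. The antiviral enzyme Rsad2 (viperin) had 75.8% of 62 UMIs there. Of the oligoadenylate synthetase-like genes, Oasl1 had 62.1% of 29 UMIs and Oasl2 45.6% of 206.

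Nucleic acid sensors of the Ifi200 family were also restricted: Ifi207 had 69.1% of 110 UMIs in interferon-high cells, Ifi204 43.0% of 426 and Ifi209 29.0% of 272. These genes lie near one another on chromosome 1 and resemble each other, so their separate counts are uncertain. Slfn5 of the Schlafen family (51.1% of 268 UMIs) and Zbp1, a sensor of Z-form nucleic acid (47.9% of 48), completed the set with Ifi44, which had 5 UMIs in all and can hardly be placed.

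The widespread genes were Trim30a, an E3 ligase of the TRIM family that restrains Toll-like receptor signalling, Bst2 (tetherin), which holds budding virus at the membrane, the Isg15 ligase Herc6, and the ADP-ribosyltransferases Parp14 and Parp9. Trim30a was detected in 44.0% of the other cells and Bst2 in 35.9%, with Parp14 at 26.2%, Parp9 at 25.8% and Herc6 at 25.2%. Thus no gene of the list had a UMI in as many as 50% of the other cells at a median of 4994.5 UMIs per cell. The same genes were still higher in interferon-high cells: 8.08 times the level of the other cells for Bst2, 6.33 times for Trim30a, 9.45 times for Herc6, 10.5 times for Parp14 and 4.45 times for Parp9.

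Between the extremes stood 12 sparse genes. They included ISGF3 subunits: Stat2, detected in 66.2% of interferon-high cells and 11.4% of the others, and Irf9, detected in 33.8% and 16.3%, with the smallest ratio of levels of all 33 genes, 1.91. The double-stranded RNA sensor Ifih1 (MDA5) and the kinase Eif2ak2 (PKR) had ratios of 9.41 and 6.76. Higher ratios were seen for Oas1a, a synthetase of the RNase L activator (31.2), the chaperone Rtp4 (22.5), the PHD-finger genes Phf11b (20.4) and Phf11d (17.8), and Sp100, a protein of PML nuclear bodies (17.7). Xaf1 (11.8), Slfn2 (8.89) and Dtx3l (3.99) made up the rest. Dtx3l, whose protein forms a complex with that of Parp9, overlaps Parp9 head to head on chromosome 16, and how reads in the overlap were assigned is not given in the sources used here.

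The limits mattered for few genes. Ifi209 at 29.0% of UMIs was just inside the restricted set and Oas1a at 22.1% just outside, and Herc6 at 25.2% of cells was just inside the widespread set and Eif2ak2 at 23.6% just outside. With 2 or 4 sentinels, or with 15% or 40% of UMIs, the restricted set held 15 to 19 genes. A limit of 10% of cells gave 11 widespread genes, and a limit of 50% gave 0. The shares of other cells with a UMI of a restricted gene, 0.03% for Ifi44 to 3.11% for Isg15, cannot be told apart from free RNA captured in droplets, since no cell type known to lack these genes was present.

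Interferon-high cells were rare in both treatments. In all, 65 of 7545 microglia-like cells (0.861%) met the rule, 27 of them oil and 38 TAM, and 60 of the 65 fell in 1 cluster of 134 cells led by Ifit3, Ifit2 and Ifit1. No sentinel was detected in 6951 cells, 463 had 1, 66 had 2, and the highest number in a cell was 9. Depth was similar, with a median of 5343 UMIs in interferon-high cells and 4994.5 in the others. Microglial identity genes stayed near the level of the other cells, at ratios of 0.84 for P2ry12 and 0.92 for Tmem119. Summed monocyte markers were higher in interferon-high cells, at 56.8 CPM against 9.26 CPM in the others. Markers of CNS-associated macrophages were also higher, at 36.9 and 9.83 CPM. In each list 2 of 7 genes had 0 UMIs in all microglia-like cells (Ly6c2 and Chil3, Cd163 and Ms4a7), and the sums came from the other genes. The part of these markers in the results was not tested.

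Oil1 to Oil5 held 4, 6, 9, 6 and 2 interferon-high cells, and TAM1 to TAM5 held 8, 0, 11, 7 and 12. The shares were 0.723% ± 0.314 in oil (SD, n = 5 hashtags, range 0.249% to 1.02%) and 0.951% ± 0.603 in TAM (n = 5, range 0% to 1.64%). The ranges overlapped, and TAM2 with 0 of 587 cells allowed a share of up to 0.511% by the floor of 3 counts, and of up to 0.626% by the exact 95% interval. When each cell was thinned to 2000 UMIs, 38 of 7444 cells were left, at 0.428% ± 0.288 in oil and 0.553% ± 0.315 in TAM, with 40 oil and 61 TAM cells too shallow to enter. No test was run on this share. The interferon-led cluster, which was wider than the rule, held 45 oil and 89 TAM cells, 1.22% ± 0.59 of the cells in oil (SD, n = 5, range 0.498% to 1.99%) and 2.33% ± 0.70 in TAM (n = 5, range 1.45% to 3.28%). Its share was 0.881%, 1.60%, 1.14%, 1.99% and 0.498% in Oil1 to Oil5 and 1.45%, 1.87%, 2.55%, 2.52% and 3.28% in TAM1 to TAM5. The ranges overlapped, and each TAM hashtag lay above the oil hashtag of the same number. The cluster was built from these same genes, so its size is given as a description with no test.

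**Figure D2:**
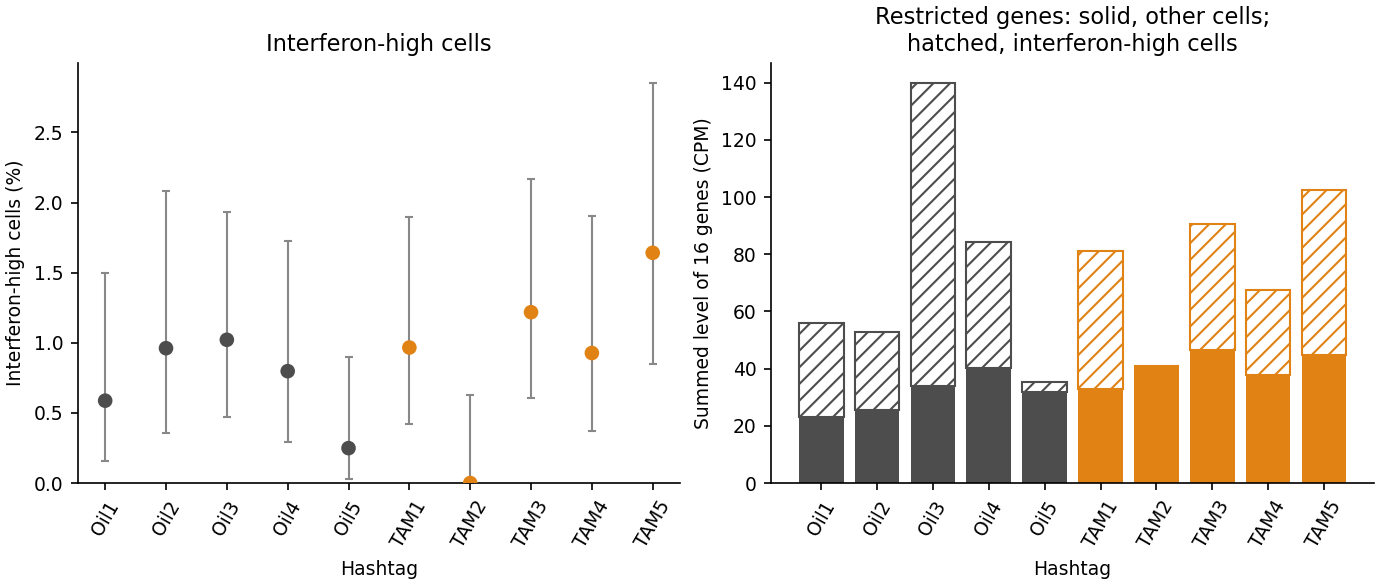
Left, the percentage of microglia-like cells that were interferon-high in each hashtag, with exact (Clopper-Pearson) 95% intervals that cover counting error only. Right, the summed level of the 16 restricted genes in CPM, split into UMIs from other cells (solid) and from interferon-high cells (hatched). Oil3 stands highest at 139.8 CPM with most of its bar hatched, and TAM2 has no hatched part.

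How unevenly the restricted RNA was spread differed between hashtags. Together the 65 cells held 1618 of the 3020 UMIs of the 16 genes (53.6%), a share that the sentinels and the 25% limit partly fix, since all 10 sentinels are among the 16 genes. The part of the UMIs in interferon-high cells ran from 0% in TAM2 and 9.79% in Oil5 to 75.7% in Oil3. A single cell of Oil4 held 126 of the 328 restricted UMIs of that hashtag. The summed level varied widely within each treatment, 73.6 ± 41.0 CPM in oil (SD, n = 5, range 35.2 to 139.8) and 76.5 ± 23.7 in TAM (n = 5, range 40.9 to 102.6), and the groups overlapped.

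TAM was then compared with oil on UMIs summed per hashtag over the microglia-like cells, with edgeR's quasi-likelihood test across 11171 genes and Benjamini-Hochberg adjustment. Over all genes 4.52% passed an adjusted p of 0.05, 183 (1.64%) higher and 322 (2.88%) lower in TAM. Of the 33 interferon genes 25 had enough counts to be tested, and 2 of them (8%) rose, Trim30a and Sp100, while none fell. The fold change was positive for 20 of the 25, with a median of 0.12 on the log2 scale, against 49.9% positive and a median of 0.00 over all genes. Another 5 tested genes had an unadjusted p under 0.05 in edgeR and did not pass the adjustment. With the 2 called genes this made 7 of 25 under 0.05, against 2172 of all 11171 genes.

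**Figure D3:**
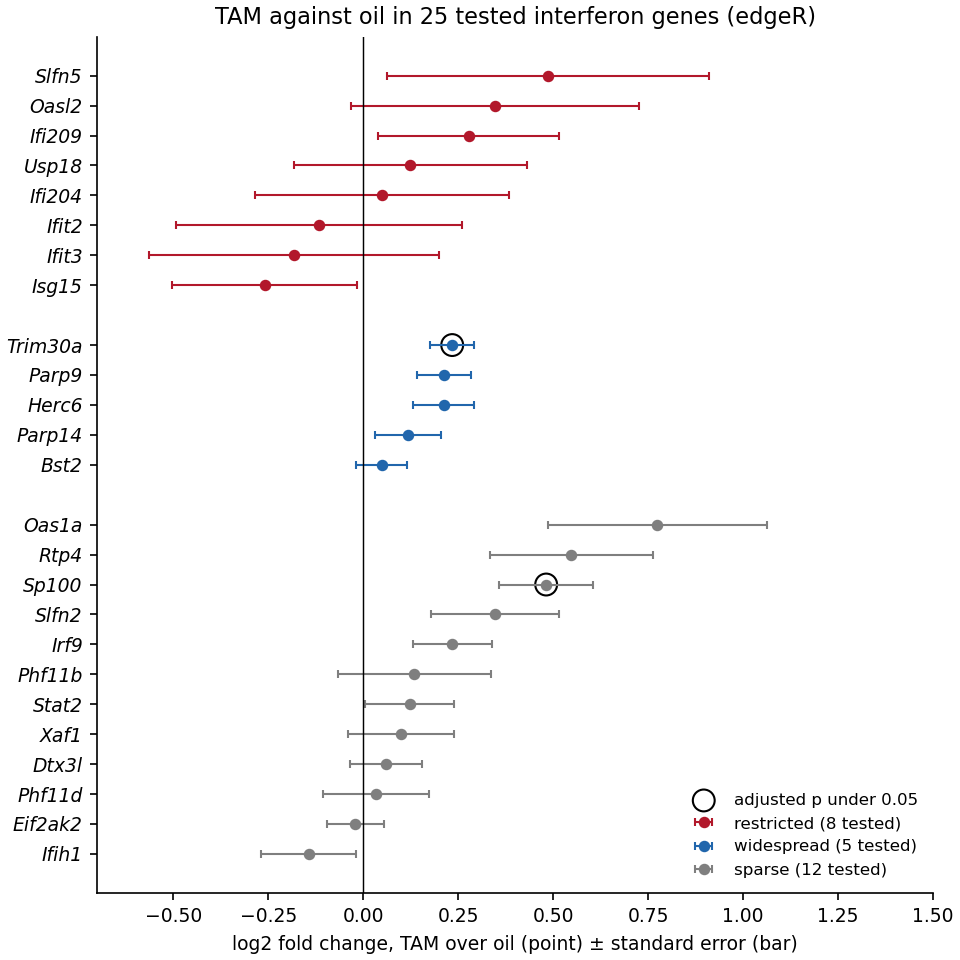
The log2 fold change of TAM over oil (point) with its standard error (bar) for the 25 tested genes, grouped as restricted (red), widespread (blue) and sparse (grey); circles mark an adjusted p under 0.05. The widespread genes have short bars to the right of 0 except for Bst2, whose point lies at 0.05 with a bar that crosses 0, and the restricted genes have bars of 0.24 to 0.42 that reach to both sides.

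Trim30a stood at 117, 116, 126, 136 and 130 CPM in Oil1 to Oil5 and at 138, 137, 154, 148 and 159 CPM in TAM1 to TAM5, scaled by edgeR's TMM factors. Every TAM hashtag was above every oil hashtag, which held for 2.14% of all tested genes. The mean went from 125 ± 8.2 to 147 ± 9.6 CPM (SD, n = 5 each), a log2 fold change of 0.23 ± 0.06 (SE, edgeR adjusted p = 0.0275). The share of cells with a UMI was 42.0% ± 1.62 in oil and 46.6% ± 1.78 in TAM, and after thinning to 2000 UMIs 20.7% ± 1.498 and 22.5% ± 1.33, where the ranges overlapped. Without the interferon-high cells the fold change was 0.25 (edgeR adjusted p = 0.0236), so it was as large in the remaining cells.

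Sp100 gave 18.7, 19.5, 26.7, 25.1 and 18.7 CPM in Oil1 to Oil5 and 27.8, 31.8, 28.9, 27.3 and 37.8 CPM in TAM1 to TAM5. Again the groups did not overlap, although Oil3 came within 1 CPM of the lowest TAM hashtag. The mean rose from 21.7 ± 3.9 to 30.7 ± 4.3 CPM, a log2 fold change of 0.48 ± 0.12 (SE, edgeR adjusted p = 0.0354). In thinned cells the share with a UMI was 3.40% ± 0.54 in oil (range 2.75% to 4.02%) and 5.32% ± 0.65 in TAM (range 4.66% to 6.11%). Without the interferon-high cells the fold change was 0.63 (edgeR adjusted p = 0.0115).

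**Figure D4:**
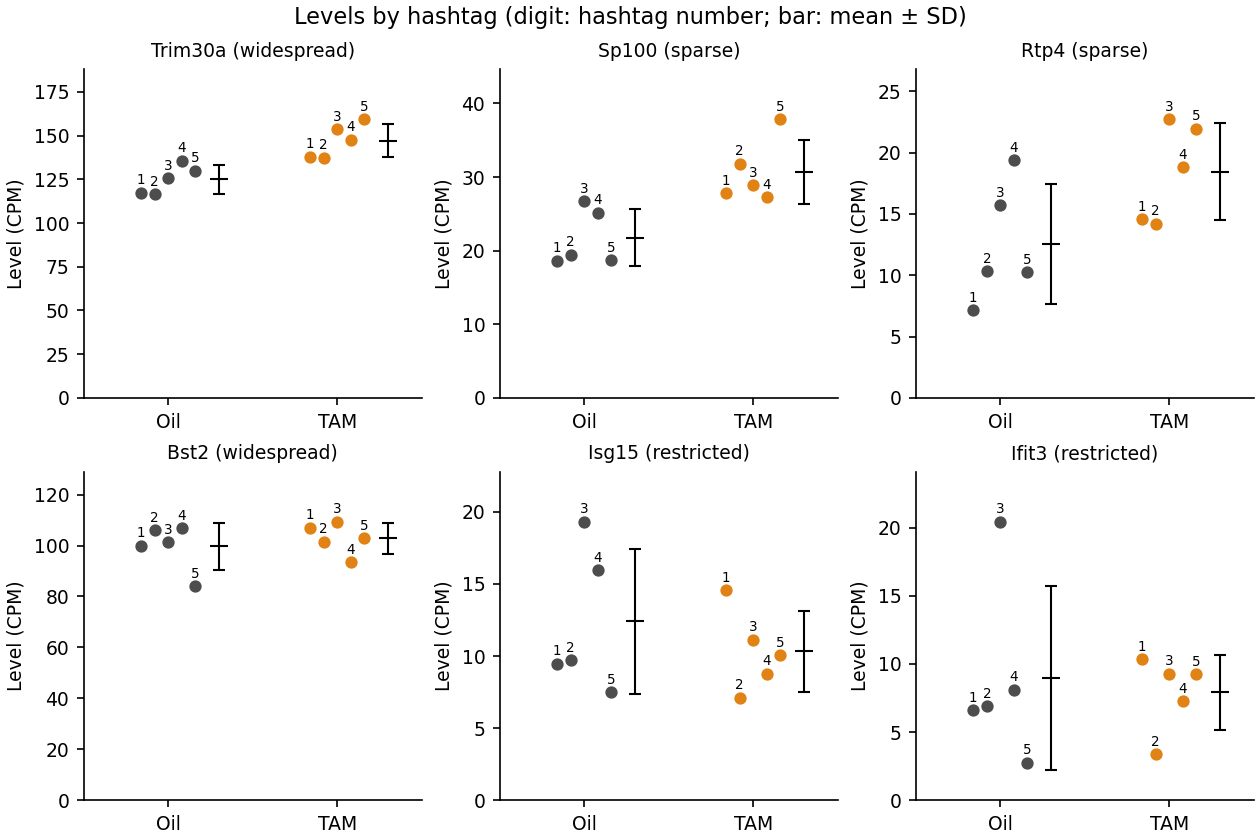
Levels of 6 interferon genes in CPM for each hashtag (points, with the hashtag number) under oil and TAM, with the mean and SD as a bar at the right of each group. Trim30a and Sp100 separate the groups, Rtp4 and Bst2 overlap, and Isg15 and Ifit3 show the spread of the restricted genes, with Oil3 highest in both.

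Rtp4, a chaperone that guides membrane receptors to the surface, came close. Its levels were 7.18, 10.3, 15.7, 19.4 and 10.2 CPM in Oil1 to Oil5 and 14.6, 14.2, 22.7, 18.8 and 22.0 CPM in TAM1 to TAM5, so the groups overlapped. Each TAM hashtag except TAM4 was above the oil hashtag of the same number. The log2 fold change was 0.55 ± 0.22 (SE, edgeR adjusted p = 0.167), and with the hashtag number as a replicate block it was 0.57 (edgeR adjusted p = 0.0279), which made 3 of 25 genes called against 7.82% of all genes. With sex as a covariate the adjusted p of Rtp4 in edgeR was 0.0268, with a background of 7.84%.

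For the other widespread genes the values lay higher in TAM without passing the test. Herc6 measured 66.5 ± 8.5 CPM in oil and 77.1 ± 4.7 in TAM (log2 fold change 0.21 ± 0.08 SE, edgeR adjusted p = 0.151). Parp9 had 61.1 ± 5.1 and 70.8 ± 5.5 CPM (edgeR adjusted p = 0.0964) and Parp14 69.8 ± 6.8 and 75.8 ± 9.7 CPM (edgeR adjusted p = 0.510). Bst2 was nearly level, at 99.6 ± 9.2 CPM in oil and 103 ± 6.1 in TAM, a log2 fold change of 0.05 ± 0.07. Thus 1 of 5 widespread genes passed, all 5 fold changes were positive, and their median was 0.21.

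Summed per hashtag, the 5 widespread genes gave 387, 415, 437, 436 and 401 CPM in Oil1 to Oil5 and 453, 448, 502, 474 and 512 CPM in TAM1 to TAM5. No oil hashtag reached the lowest TAM hashtag, with means of 415 ± 21.9 and 478 ± 28.5 CPM (SD, n = 5 each). The sum of the 12 sparse genes overlapped between the groups, at 305 ± 35.1 and 349 ± 34.5 CPM. In the sparse set 1 of 12 genes passed, Sp100. Oas1a had a larger fold change at low counts, from 2.67 ± 0.53 to 4.56 ± 1.73 CPM, a log2 value of 0.77 ± 0.29 (SE, edgeR adjusted p = 0.142). The signalling subunits Stat2 (27.6 ± 4.4 and 30.04 ± 4.4 CPM) and Irf9 (35.6 ± 5.7 and 42.2 ± 4.7 CPM) overlapped between treatments.

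None of the 8 restricted genes with enough counts passed the edgeR test, and DESeq2 also called 0. None had an unadjusted p under 0.05 in edgeR, against 2172 of all 11171 genes. The other 8 restricted genes were too low to be tested. Isg15 had 9.47, 9.72, 19.3, 15.97 and 7.48 CPM in Oil1 to Oil5 and 14.6, 7.10, 11.1, 8.77 and 10.1 CPM in TAM1 to TAM5. Its log2 fold change was -0.26 ± 0.24 (SE, edgeR adjusted p = 0.618), with the groups fully overlapping. Ifit3 read 6.60, 6.90, 20.5, 8.12 and 2.74 CPM in Oil1 to Oil5 and 10.4, 3.38, 9.29, 7.27 and 9.26 CPM in TAM1 to TAM5.

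For Ifit3 the log2 fold change of -0.18 ± 0.38 (SE, edgeR adjusted p = 0.856) turned to 0.43 when Oil3 was left out, so 1 hashtag decided its sign. The restricted set moved in the same way: its median log2 fold change was 0.09 with 5 of 8 genes positive, and without Oil3 it was 0.50 with 7 of 8 positive and 2 at an unadjusted p under 0.05 (1902 of all 11266 tested genes). Without the interferon-high cells the median was 0.44, with 5 of 6 positive and 2 at an unadjusted p under 0.05 (2175 of 11154). Without the immediate early cluster it was -0.48, with 1 of 10 positive and 2 at an unadjusted p under 0.05 (2131 of 11017). The edgeR test called 0 restricted genes in each of these fits. Ifi204 was at 10.3 ± 7.1 CPM in oil and 10.9 ± 3.5 in TAM, and Ifi209 at 6.13 ± 2.46 and 7.48 ± 1.58. With standard errors of 0.24 to 0.42 on the log2 scale, a change of the size seen for Trim30a could not have been told from 0 in this set. These values do not show that the restricted genes responded alike in oil and TAM.

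The calls moved with the immediate early cluster, which held mostly oil cells. Inside it the widespread sum was 382 ± 73.3 CPM over the oil hashtags (SD, n = 5, range 333 to 512), with 39 to 325 cells per hashtag. All oil microglia-like cells, this cluster included, gave 415 ± 21.9 CPM (range 387 to 437). With oil cells pooled, the sum was 354 CPM inside the cluster and 442 CPM outside it. Without that cluster the widespread sum was 446 ± 31.2 CPM in oil and 480 ± 26.7 in TAM and the groups overlapped. Trim30a then had a log2 fold change of 0.16 (edgeR adjusted p = 0.0999), with hashtags from 127 to 136 CPM in oil and 137 to 161 CPM in TAM that still did not overlap. In the same cells Sp100 had a log2 fold change of 0.28 (edgeR adjusted p = 0.249). None of 27 tested interferon genes passed, and 11 of 27 were positive. An unadjusted p under 0.05 in edgeR was seen for 5 of them and for 2131 of all 11017 genes. Over all genes 4.44% still passed.

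**Figure D5:**
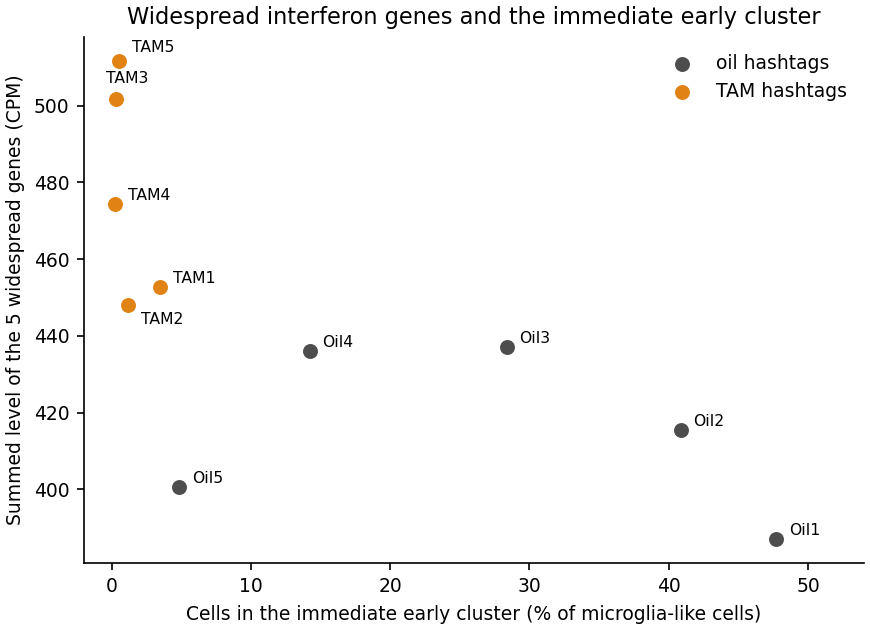
Summed level of the 5 widespread genes (CPM, vertical, axis not starting at 0) against the percentage of cells in the immediate early cluster (horizontal) for each hashtag. The TAM hashtags stand at the left between 448 and 512 CPM, and the oil hashtags spread from 4.86% to 47.7% between 387 and 437 CPM, with Oil5 low on both axes.

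Within single clusters the widespread sum was compared next, with no test. In cluster 1 it was 386 ± 10.0 CPM in oil (range 377 to 399) and 429 ± 12.6 in TAM (range 416 to 443), and in cluster 2 413 ± 12.4 (400 to 427) and 446 ± 8.5 (435 to 457), with no overlap in either. In cluster 0 the sums of 397 ± 37.5 and 419 ± 16 CPM overlapped. The immediate early cluster ran the other way, at 382 ± 73.3 CPM in oil and 344 ± 207 in TAM, with 2 to 29 cells per TAM hashtag. Trim30a alone overlapped between the groups in all 4 clusters. Sp100 was lower in TAM in cluster 1, at 17.6 ± 3.35 CPM in oil and 13.5 ± 7.15 in TAM, and higher in cluster 0 (11.1 ± 5.66 and 17.3 ± 2.67) and cluster 2 (25.9 ± 5.34 and 31.6 ± 3.77), with overlap in each. In cluster 2 alone, the largest, the fit called neither gene (log2 fold change 0.20 and edgeR adjusted p = 0.474 for Trim30a, 0.32 and 0.605 for Sp100). With the mean immediate early level as a covariate the log2 fold change of Trim30a was 0.04 (edgeR adjusted p = 0.937) and that of Sp100 0.35 (edgeR adjusted p = 0.649). That level, a mean log2 CPM, ran from 4.99 to 6.94 in the oil hashtags and from 3.78 to 4.91 in the TAM hashtags. The ranges did not overlap, so treatment could not be fully separated from this covariate. In that fit 0 of the 25 genes passed, against 0.573% of all genes. An unadjusted p under 0.05 in edgeR was seen for 0 of the 25 and for 1105 of all 11171 genes.

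The calls were also lost when single hashtags were left out. Trim30a missed the threshold without Oil1, Oil2, Oil3, TAM3, TAM4 or TAM5 (edgeR adjusted p at most 0.0789), and Sp100 without Oil1, Oil2, Oil5, TAM2, TAM3, TAM4 or TAM5 (at most 0.101), with log2 fold changes of 0.20 to 0.26 and 0.40 to 0.58. Calls over all genes also fell in these fits, from 4.52% with all hashtags. They were 2.24% to 3.55% where Trim30a was lost and 2.25% to 4.46% where Sp100 was lost. A difference in response between the sexes was not found for the list: 0 of 25 passed the edgeR treatment-by-sex test, 0 had an unadjusted p under 0.05, and 0.0179% of all genes passed. Only Oil1, Oil2, TAM1 and TAM2 were male, so this test could easily miss a difference. These values do not show that the sexes responded alike.

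The rest of the pathway was read from a list of 105 other genes, of which 99 were in the matrix and 59 were tested. Ligands were almost absent: the 18 interferon genes had 4 UMIs between them, and 15 had 0. Both receptor subunits were detected and differed little, Ifnar1 at 69.4 ± 4.9 CPM in oil and 72.2 ± 2.7 in TAM and Ifnar2 at 330 ± 12.97 and 307 ± 34.9. The kinases Tyk2 (42.8 ± 4.0 and 45.7 ± 6.4 CPM) and Jak1 (261 ± 13.5 and 263 ± 13.5) overlapped as well. None of the 7 receptor and kinase genes, 7 transcription factors, 13 sensors and adaptors and 6 genes listed as negative regulators passed. The last list also held the exonuclease gene Isg20.

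A single gene passed among the 26 other interferon-induced genes that were tested. It was the only call among the 59 pathway genes (1.69%, against 4.52% of all genes). Slfn9, a Schlafen gene on chromosome 11, had 3.73, 4.39, 5.39, 5.76 and 3.74 CPM in Oil1 to Oil5 and 7.30, 7.10, 7.84, 8.77 and 9.79 CPM in TAM1 to TAM5. The groups did not overlap, and the log2 fold change was 0.81 ± 0.18 (SE, edgeR adjusted p = 0.0174). Without TAM4 or TAM5 it missed the threshold (edgeR adjusted p of 0.0502 and 0.0536), and without the immediate early cluster it kept it at 0.78 (edgeR adjusted p = 0.0460). Its copy Slfn8 is similar in sequence, so its count is uncertain. With the replicate block 5 of the 59 genes were called, Slfn9, Lgals3bp and Trim30d higher and Socs3 and Ptpn6 lower. That share of 8.47% was close to the 7.82% of all genes called in the same fit.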

How the data were processed

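The deposited values are raw UMI counts that the authors made with Cell Ranger (version 7.0.0 per the file headers), for 32285 genes and 10 hashtags in 9975 barcodes, with the build mm10 per the submitters' processing notes. How intronic reads were handled, the annotation and the rule for calling barcodes: not given in the sources used here.

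Hashtags were assigned with HTODemux in Seurat 5.3.0 (positive quantile 0.99). Single-hashtag barcodes were kept from 500 genes and 1000 UMIs upward, with mitochondrial UMIs up to 10%, and were clustered with scanpy 1.11.5 (2000 variable genes, 30 components, 15 neighbours, Leiden resolution 0.5). Clusters were named microglia-like from marker lists, and 2 clusters stayed unnamed, 52 cells led by MHC class II genes (left out by a rule set after seeing the data) and 306 cells with a median of 1502 UMIs. Multiplets by hashtag were removed, and no other doublet caller was run.

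UMI counts were summed per hashtag and tested in edgeR 4.0.16 (TMM scaling, filterByExpr, quasi-likelihood test, adjusted p under 0.05 over all tested genes), with DESeq2 1.42.0 as an alternative. The tests were checked on simulated data. The members and lists were chosen with earlier results of these data known. Named for their test were members past the threshold, the 4 members with the highest mean CPM in the restricted and the widespread set, Ifnar1, Ifnar2, Tyk2 and Jak1, and up to 5 other pathway genes past the threshold; Rtp4, Oas1a, Parp9, Stat2, Irf9, Lgals3bp, Trim30d, Socs3 and Ptpn6 were added after their values were seen. Some genes covered by these rules are not reported here. CPM counts transcript ends and is not scaled by gene length. Same-numbered oil and TAM hashtags deviated together from their group means over 5584 genes, with correlations across genes of 0.525, 0.381, 0.253, 0.276 and 0.247 for numbers 1 to 5. Oil1, Oil2 and Oil3 correlated best with the TAM hashtag of their own number, but Oil4 did so with TAM5 and Oil5 with TAM4. Sex-linked genes were not removed, and the part of sex in these correlations was not tested. The numbers come from the hashtag names and also match the sex read from the data, and the fit with the number as a replicate block was an alternative. Other alternatives changed scaling, filter, hashtags, covariates, cells and hashtag assignment. Intervals and floors cover counting error only (95%, floor of 3 counts).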

Additional observations from a re-analysis of the deposited data

How the results depend on the processing

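Calls among the 33 genes changed with the hashtags, covariates and cells used. The count of 2 called genes, and of 1 in the widespread set, became 0 without Oil1, Oil2 and Oil3 together, with a covariate for immediate early RNA or for hashtag number, without the immediate early cluster, and in the largest cluster alone. Over all genes these fits called 0.0604%, 0.573%, 0.331%, 4.44% and 0.329%. The hashtag number used as a covariate was a separate numbering, not the digit 1 to 5 of the replicate block. It differed between oil and TAM hashtags, and so did the immediate early level, so treatment could not be fully separated from either. Leaving out single hashtags gave 0 to 2 and 0 to 1, in fits that called 2.24% to 5.84% of all genes. The restricted set gave 0 in all alternatives run. The 1 called pathway gene became 2 with library size alone, DESeq2 or a stricter hashtag quantile, 3 without a filter and 5 with sex as a covariate. These were 3.39%, 3.39%, 3.39%, 3.80% and 8.47% of the pathway genes tested. Over all genes the same fits called 5.46%, 4.43%, 4.87%, 4.17% and 7.84%. The count was 0 without Oil1, Oil2 and Oil3, with either of the other covariates or in the largest cluster alone, and 0 to 4 when single hashtags were left out.

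With the replicate block 3 members (12%) and 5 pathway genes (8.47%) were called, against 7.82% of all genes. Rtp4 stood at 0.57, and the block changed no other call among the named genes. Library size alone shifted the median of all genes by 0.036 and gave 355 higher of 610 calls, against 183 of 505 with TMM. The cell-based alternatives were chosen after seeing the data, and the cause of these moves was not tested.

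Signs that turned, as log2 fold changes, were Ifi204 -0.21, Ifit3 0.14, Parp14 -0.14 and Rtp4 -0.10 with the immediate early covariate. With the separate hashtag number as a covariate they were Trim30a -0.020, Ifi204 -0.46, Ifit3 0.12, Parp14 -0.24, Ifnar2 0.050 and Rtp4 -0.25. Without the immediate early cluster they were Ifi204 -0.39, Ifi209 -0.073 and Bst2 -0.052. In the largest cluster alone they were Ifi204 -0.54, Parp14 -0.0023, Ifnar1 -0.16, Tyk2 -0.0015 and Jak1 -0.032. Ifi204 was -0.060 at the stricter hashtag quantile and Ifit3 0.59 without Oil1, Oil2 and Oil3. Leaving out single hashtags gave Ifi204 -0.12 to 0.58, Ifit3 -0.42 to 0.43, Bst2 -0.0077 to 0.082 and Jak1 -0.015 to 0.032.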

Other observations

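Beyond the 33 genes, interferon-high cells carried more RNA of other pathway genes, given here as a description with no test. The share over all genes was not computed, so the counts that follow have no background beside them. Of 60 pathway genes with at least 100 UMIs, 35 were at least 2 times and 7 at least 10 times as high in the 65 interferon-high cells as in the others. Among these 7 were Isg20, an exonuclease (27.1), Dhx58, a regulator of RNA sensors (16.9), the guanylate-binding protein gene Gbp2 (15.9), Slfn9 (11.6), the helicase gene Ddx60 (10.1) and Cxcl10.

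Cxcl10, a chemokine that attracts T cells, had the largest ratio among these 60 genes, 417, but its UMIs were uneven. Below 100 UMIs the ratios of Ifi211 (1862), Ifi208 (602) and Iigp1 (507) were larger, each resting on 2 to 8 UMIs in the other cells. It gave 118 UMIs in interferon-high cells and 31 in the others, and only 10.8% of interferon-high cells had any, in 4 of 9 hashtags. In contrast Ifitm3, a membrane protein that blocks virus entry, was found in 64.6% of interferon-high cells and 2.63% of the others (ratio 51.9). The receptor genes did not share this pattern, with ratios of 1.25 for Ifnar1 and 0.99 for Ifnar2, and Irf3, the factor that starts interferon transcription, had a ratio of 0.62 on 11 UMIs in interferon-high cells.

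In the interferon-led cluster of 134 cells, Trim30a reached 699 CPM, against 96.3 to 187 CPM in the other 6 microglia-like clusters, and Bst2 513 CPM against 81.2 to 172 CPM. Among those other clusters Bst2 was highest in the clusters led by Spp1 and Lgals3 (172 CPM) and by Mki67 and Top2a (165 CPM), and Trim30a in the Mki67 cluster (187 CPM) and lowest in the Spp1 cluster (96.3 CPM).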
